A study of Mus musculus with 2 samples.

Results

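The 50 genes described here run the cell division cycle: 15 cyclins, kinases, inhibitors and E2F factors of G1, 15 factors that copy DNA in S phase, and 20 genes of G2 and mitosis. They were chosen by gene name, from probes that were no control spots on either array, and all 50 were among the 30222 genes on the array, with 71 of its 39429 probes. Liver RNA was measured on 1-colour Agilent arrays labelled with Cy3, 1 array from a wild type and 1 from a knockout of Drp1, the GTPase that divides mitochondria (gene Dnm1l). The study's title places the disruption in the liver and concerns obesity and Fgf21. Both were male C57BL/6J mice on a lard diet (24% fat by content, 45% of energy) for 24 weeks from the age of 4 weeks, so high-fat feeding was common to both. The Cre or promoter behind the knockout, the deleted exons and any pooling of mice are not given in the sources used here. The design describes both a 17 h fast and a 4 h refeeding after a fast, and the labels do not say in which state these livers were taken. With 1 array in each group no difference was tested between groups, and the number of arrays limits the precision of every value.

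Most hepatocytes of an adult liver rest outside the cycle and can re-enter it after injury. D-type cyclins with Cdk4 or Cdk6, and then cyclin E with Cdk2, phosphorylate the retinoblastoma protein, which frees E2F factors to switch on genes for DNA synthesis. Cdc6 and Cdt1 load the Mcm2 to Mcm7 helicase on origins, and cyclin B with Cdk1 later drives mitosis, which ends when Cdc20 and the anaphase-promoting complex have cyclin B destroyed. Promoters of S phase genes often hold E2F sites, and those of mitotic genes a CHR (cell cycle genes homology region) element beside CCAAT boxes, which bind NF-Y.

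The promoter letters are shown first because the words found in them differ between S phase and mitotic members, whatever the arrays show. RefSeq sequence (GRCm38.p6) from 250 bases before to 50 after the start site was found for 41 of the 50 members. The words searched, on both strands, were TTTCCCGC, TTTCGCGC, TTTGCCGC and TTTGGCGC for E2F, TTTGAA and TTCGAA for the CHR element, and CCAAT, and some E2F matches overlap one another. A gene with several start sites counts once where any of its windows holds a word. In the sequences printed here, the last 200 bases before the start site from 5′ to 3′ on the gene's strand, matches are in capitals, and ATTGG is CCAAT read on the other strand. The 3 printed per phase are the members with exactly 1 window that differed most between the arrays. For G1 these are E2f8 (chr7:48881597-48881796, minus strand), Cdk2 (chr10:128705052-128705251, minus strand) and E2f7 (chr10:110745239-110745438, plus strand), which hold CCAAT boxes together with a CHR word in E2f8 and an E2F word in the other members shown.
E2f8: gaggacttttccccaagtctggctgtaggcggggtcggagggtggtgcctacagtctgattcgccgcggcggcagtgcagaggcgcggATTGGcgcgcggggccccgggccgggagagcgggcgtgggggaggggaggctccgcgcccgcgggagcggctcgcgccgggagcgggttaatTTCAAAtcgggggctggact
Cdk2: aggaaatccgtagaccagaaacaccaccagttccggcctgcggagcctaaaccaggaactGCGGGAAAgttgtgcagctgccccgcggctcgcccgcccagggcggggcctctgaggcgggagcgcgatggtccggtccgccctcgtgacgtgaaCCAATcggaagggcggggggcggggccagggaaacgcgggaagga
E2f7: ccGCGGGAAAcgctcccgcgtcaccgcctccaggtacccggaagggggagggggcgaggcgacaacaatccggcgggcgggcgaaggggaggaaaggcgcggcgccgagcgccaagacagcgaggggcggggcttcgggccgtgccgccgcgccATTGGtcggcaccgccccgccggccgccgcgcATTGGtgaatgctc
For S phase they are Cdt1 (chr8:122567815-122568014, plus strand), Mcm2 (chr6:88898781-88898980, minus strand) and Mcm6 (chr1:128359706-128359905, minus strand). Mcm6 carries its E2F words both on their own and overlapping, and Cdt1 has no match in the bases shown but an E2F word just after its start site.
Cdt1: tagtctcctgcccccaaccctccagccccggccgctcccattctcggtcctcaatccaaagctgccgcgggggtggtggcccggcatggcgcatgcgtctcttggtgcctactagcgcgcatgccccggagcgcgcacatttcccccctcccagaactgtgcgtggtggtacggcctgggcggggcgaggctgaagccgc
Mcm2: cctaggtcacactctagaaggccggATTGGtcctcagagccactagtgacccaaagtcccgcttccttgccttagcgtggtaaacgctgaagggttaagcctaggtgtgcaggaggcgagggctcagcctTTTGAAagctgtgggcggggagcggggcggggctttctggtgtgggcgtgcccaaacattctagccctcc
Mcm6: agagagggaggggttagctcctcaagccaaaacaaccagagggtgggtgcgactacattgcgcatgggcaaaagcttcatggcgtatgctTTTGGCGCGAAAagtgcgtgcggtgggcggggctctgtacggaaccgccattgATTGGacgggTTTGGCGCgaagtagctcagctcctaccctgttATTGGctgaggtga
For mitosis they are Cdc20 (chr4:118437344-118437543, minus strand), Cdk1 (chr10:69352913-69353112, minus strand) and Ccnb2 (chr9:70421555-70421754, minus strand), each with a CHR word and a CCAAT box.
Cdc20: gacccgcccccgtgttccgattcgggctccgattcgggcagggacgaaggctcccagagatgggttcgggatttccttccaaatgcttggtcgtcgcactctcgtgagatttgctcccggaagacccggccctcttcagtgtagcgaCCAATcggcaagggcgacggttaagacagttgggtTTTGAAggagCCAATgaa
Cdk1: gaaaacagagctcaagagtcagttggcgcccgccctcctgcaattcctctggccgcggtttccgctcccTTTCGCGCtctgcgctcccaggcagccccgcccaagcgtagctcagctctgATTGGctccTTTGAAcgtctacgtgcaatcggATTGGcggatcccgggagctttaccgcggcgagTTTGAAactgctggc
Ccnb2: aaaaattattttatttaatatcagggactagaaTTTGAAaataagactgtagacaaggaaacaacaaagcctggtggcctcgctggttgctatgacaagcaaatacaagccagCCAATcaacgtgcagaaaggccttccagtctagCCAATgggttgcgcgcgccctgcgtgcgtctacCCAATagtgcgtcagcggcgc

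Over the full windows of 300 bases, a CHR word stood in 14 of 17 mitotic members (82.4%). It stood in 2 of 13 S phase members (15.4%) and in 2 of 11 G1 members (18.2%), against 21.7% of the 27025 genes with a window. All 14 of those mitotic members also held CCAAT, a pair found in 9.65% of all genes with a window. CCAAT by itself was common, in 41.1% of all genes with a window. It stood in 15 of 17 mitotic members (88.2%), 9 of 13 S phase members (69.2%) and 7 of 11 G1 members (63.6%). An E2F word stood in 6 of 13 S phase members (46.2%), namely Mcm3, Mcm5, Mcm6, Mcm7, Cdc6 and Cdt1. It stood in 3 of 11 G1 members (27.3%) and in 1 of 17 mitotic members (5.88%), against 2.6% of all genes with a window. With sites in overlapping windows counted once, mitotic members held 22 CHR matches, of which 15 lay between 100 bases before and 50 after a listed start site. Genes outside the 50 showed the same order: an E2F word stood in 13 of 35 other replication factors (37.1%), and a CHR word in 23 of 36 other mitotic factors (63.9%). A match is a run of letters and does not show that a factor binds there.

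**Figure D1:**
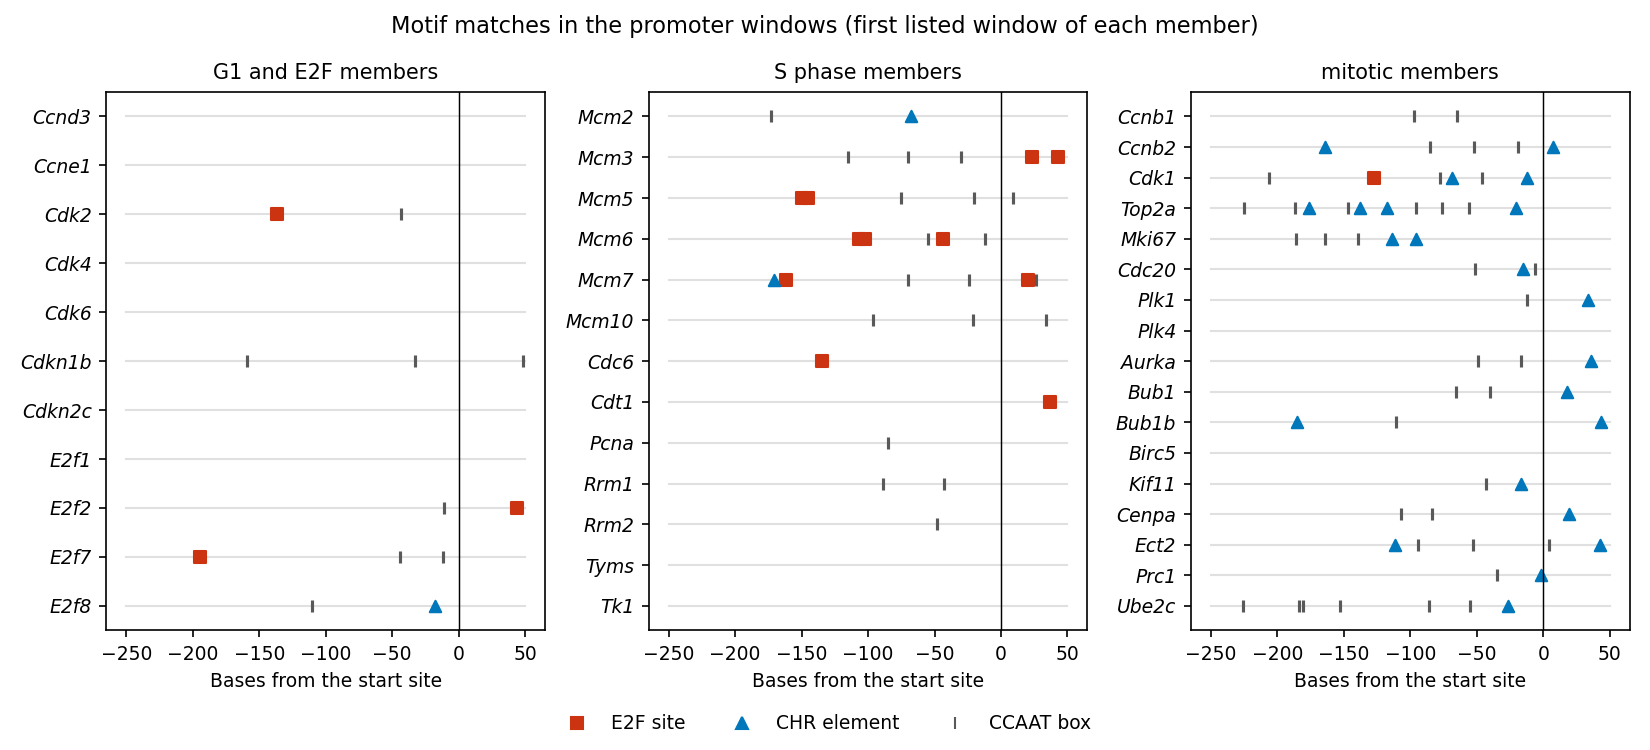
Positions of E2F, CHR and CCAAT matches relative to the start site (x axis, bases) in the first listed promoter window of the 41 members with a RefSeq window, 1 line per gene, grouped by phase. CHR matches stand in 14 of 17 mitotic genes and 2 of 13 S phase genes, and E2F matches in 6 of 13 S phase genes and 1 of 17 mitotic genes. CCAAT stands in 9 of 13 S phase genes and 15 of 17 mitotic genes, against 41.1% of all genes with a window.

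Levels are given as multiples of an array's own 75th percentile of signal, and differences as log2 values, knockout minus wild type. A probe counts as measured where it was marked well above background, and a gene as higher or lower from 1.5-fold (0.58 on the log2 scale). Of the 50 members, 34 were measured on both arrays (51% of all genes were), 7 on the knockout array alone (7.2% of all genes), 0 on the wild type array alone (1.25%) and 9 on neither (40.5%). Of the 34, 12 were higher in the knockout, or 35.3% against 8.41% of the 15401 genes measured on both arrays, and 5 were lower, or 14.7% against 13.4%. Their median difference was 0.30, beside -0.11 over all measured genes. The balance depends on the processing: normexp background correction gave 4 higher and 4 lower (4.27% and 9.55% of all genes), and scaling to the E1A spike-in spots, which lifted the median of all genes by 0.81, gave 27 and 1 (60.6% and 1.31%). At 2-fold, 7 members were higher (2.9% of all genes) and 3 lower (3.65%). Median differences were close in G1 (0.10) and S phase (0.16), and 0.66 in the mitotic members measured on both arrays. That gap depends on the processing. Normexp correction gave 0.09 in G1, 0.19 in S phase and 0.19 in mitotic members. A stricter filter on dim probes, which left 2 mitotic members, gave 0.12, 0.15 and 0.27.

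**Figure D2:**
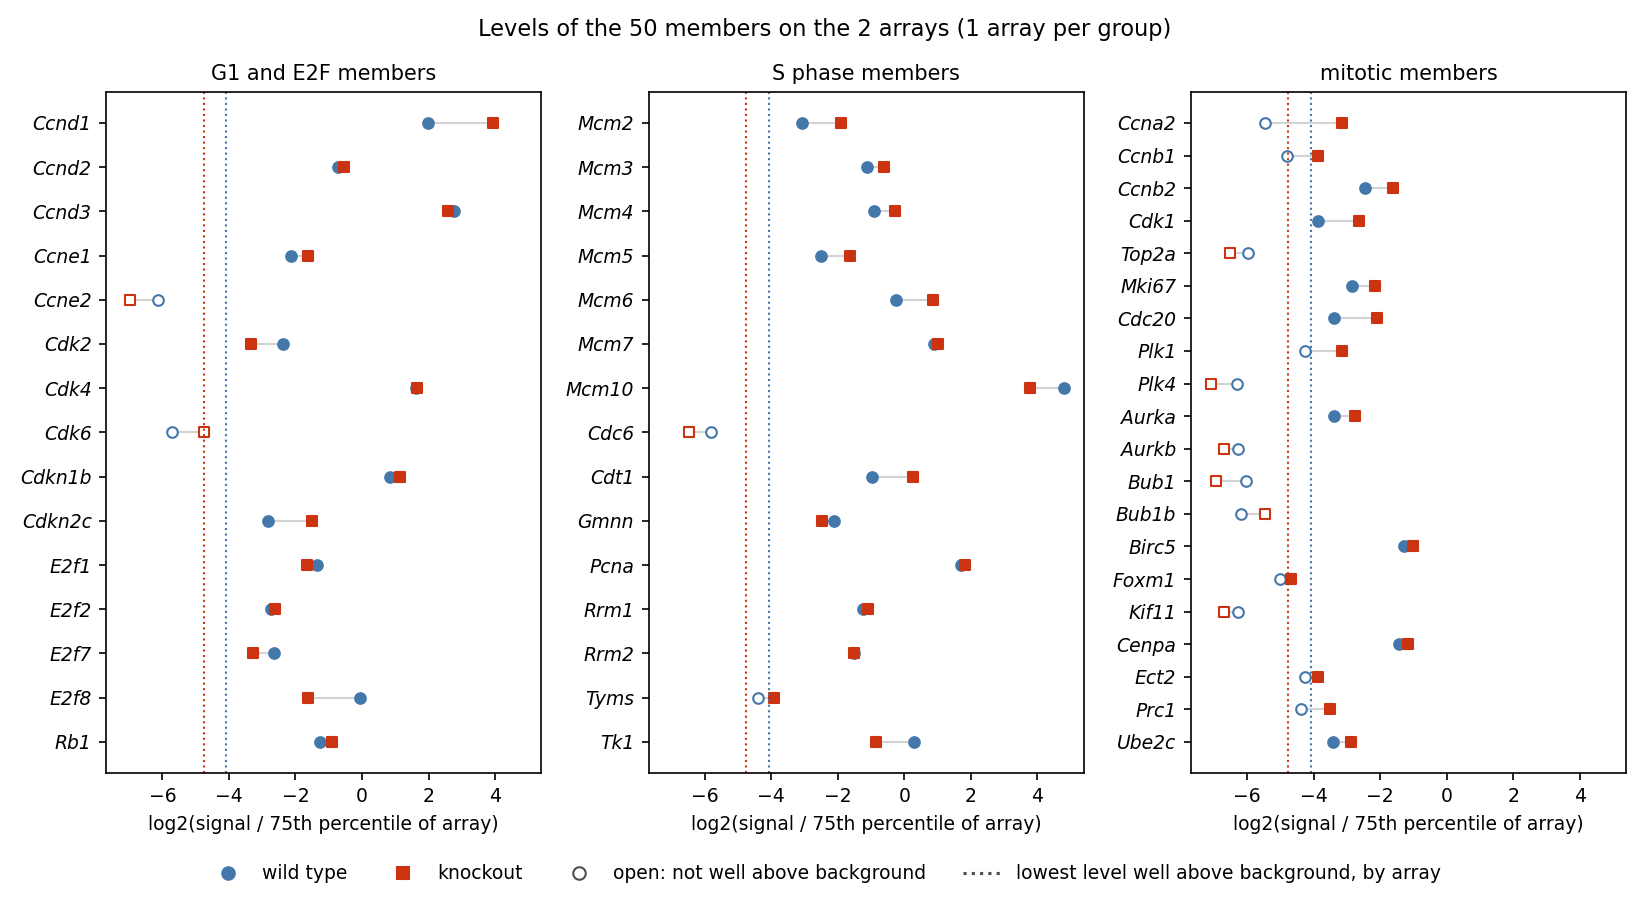
Level of each of the 50 members on the wild type and the knockout array (x axis, log2 of the multiple of the array's 75th percentile), grouped by phase, with open symbols where a probe was not well above background. Dotted lines mark the lowest measured level of each array. All 8 mitotic members measured on both arrays lie further right in the knockout, and 6 show open symbols on both arrays.

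Some facts of the libraries touch these results. The wild type array had 50.5% of its probes well above background and the knockout array 57.1%. Its lowest measured level was also higher, 0.0593 against 0.0368, so a level between these bounds could be measured on the knockout array alone. Copies of a probe on the arrays gave a difference an SD of 0.14 (log2, 241 probes), which covers spot error and not variation between mice. All 12 hepatocyte markers were measured on both arrays. Dnm1l was 1.16-fold lower in the knockout (level 1.75 against 2.03), from 1 probe that may lie outside the deleted part and so does not check the label. In liver RNA, fewer cells of a type and less RNA per cell cannot be told apart.

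Among the G1 genes cyclin D1 stood out on the high side. Ccnd1, the cyclin that starts G1 by activating Cdk4 and Cdk6, had a level of 3.92 in the wild type and 15.5 in the knockout, 3.95-fold higher (difference 1.98). Its probe (mm9 chr7:152116202-152116261, minus strand) gave differences of 1.98 to 2.79 under all settings tried. Cdkn2c encodes p18, an inhibitor of the kinases that cyclin D activates, and was 2.51-fold higher, from 0.140 to 0.352. So the G1 members that were higher included both an activator and an inhibitor of the same kinases.

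The other D cyclins did not follow cyclin D1. Ccnd2 went from 0.608 to 0.693 (difference 0.19) and Ccnd3 from 6.77 to 6.03 (-0.17, with probes at -0.19 and -0.14). Cdk4, their partner kinase, had levels of 3.05 and 3.15 with 3 probes between -0.05 and 0.25. These genes thus lay within 1.5-fold on both sides of 0, and under spike-in scaling Ccnd2, Ccnd3 and Cdk4 each passed 1.5-fold on the high side. Cdk6 was measured on neither array. Cdkn1b encodes p27, an inhibitor of cyclin E with Cdk2, and moved from 1.78 to 2.23 (difference 0.32). Rb1, the retinoblastoma protein that holds E2F in check, went from 0.419 to 0.536 (0.35).

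The G1 genes that were lower were E2f8, Cdk2 and E2f7. E2f8, a repressor of the E2F family, had a level of 0.961 in the wild type and 0.322 in the knockout, 2.98-fold lower (difference -1.58, -1.59 to -0.77 over all settings; probe at mm9 chr7:56121860-56121919, minus strand). Its close relative E2f7, also a repressor, went from 0.160 to 0.103, 1.56-fold lower, just past the threshold. E2f7 was no longer called with loess, normexp, no filter on dim probes or a stricter one, and changed sign under spike-in scaling (0.17). Cdk2, the kinase that cyclin E activates, went from 0.193 to 0.0986, 1.95-fold lower (-0.97). Spike-in scaling left -0.16 and ended the call, and the stricter filter on dim probes removed the gene. The E2F activators showed no call: E2f1 went from 0.393 to 0.320 (-0.30) and E2f2 from 0.151 to 0.162 (0.10). Cyclin E itself was only partly measured, with Ccne1 at 0.226 and 0.325, 1.44-fold higher and so just under the threshold, and Ccne2 on neither array. In all, 2 of the 13 measured G1 members were higher and 3 lower (15.4% and 23.1%), where genes in the same range of levels gave 9.92% and 11.3%.

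Among the S phase genes 5 were higher, Cdt1 and 4 subunits of the replicative helicase, and 2 were lower, Mcm10 and Tk1. Cdt1, the loader of the helicase, went from a level of 0.506 on the wild type array to 1.20 on the knockout array, 2.36-fold higher (difference 1.24; probe at mm9 chr8:125096893-125096952, plus strand). The helicase subunit Mcm6 went from 0.843 to 1.83, 2.18-fold higher (probe at mm9 chr1:130228178-130228237, minus strand). Both calls held in every setting, with differences of 1.08 to 2.05 for Cdt1 and 1.01 to 1.93 for Mcm6.

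The other subunits of the helicase, a ring of Mcm2 to Mcm7, lay above 0 to differing degrees. Mcm2 went from 0.118 to 0.266 (2.26-fold), Mcm5 from 0.176 to 0.321 (1.82-fold) and Mcm4 from 0.537 to 0.817 (1.52-fold, just inside the threshold). Mcm3 went from 0.462 to 0.651 (1.41-fold, just outside, with overlapping probes at 0.48 and 0.51). Mcm7 was the flattest of the ring, at 1.86 and 2.01 (1.08-fold). With normexp correction Mcm2, Mcm4 and Mcm5 fell short of 1.5-fold, at 0.42, 0.50 and 0.45. Of the other licensing genes, Gmnn, which encodes geminin, the inhibitor of Cdt1, went from 0.232 to 0.181 (-0.36), and Cdc6 was measured on neither array.

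The S phase members that were lower were Mcm10 and Tk1. Mcm10, which helps to turn the loaded helicase into a moving fork, went from 27.7 on the wild type to 13.6 on the knockout array, 2.04-fold lower (-1.03; probe at mm9 chr2:4911785-4911844, minus strand). Its difference was -0.78 with quantile normalization and -0.22 under spike-in scaling. The value rests on 1 probe, the brightest of all member probes on the wild type array, where Mcm2 to Mcm7 lay between 0.118 and 1.86. Whether that probe reports Mcm10 alone was not tested. Tk1, the thymidine kinase of the salvage pathway, went from 1.21 to 0.557, 2.17-fold lower. Its probes gave -1.40 and -0.84, while the third probe was below background, and spike-in scaling left -0.31. Pcna, the sliding clamp, was not called and went from 3.24 to 3.56 (0.13). Rrm1 and Rrm2, the subunits of ribonucleotide reductase, differed by 0.16 and 0.00, with Rrm2 at 0.348 and 0.349. Tyms, thymidylate synthase, was measured on the knockout array alone, which favours higher values there, and was at least 1.11-fold higher. Of the 13 S phase members measured on both arrays, 5 were higher and 2 lower (38.5% and 15.4%), against 8.52% and 11.1% of genes in the same range of levels.

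**Figure D3:**
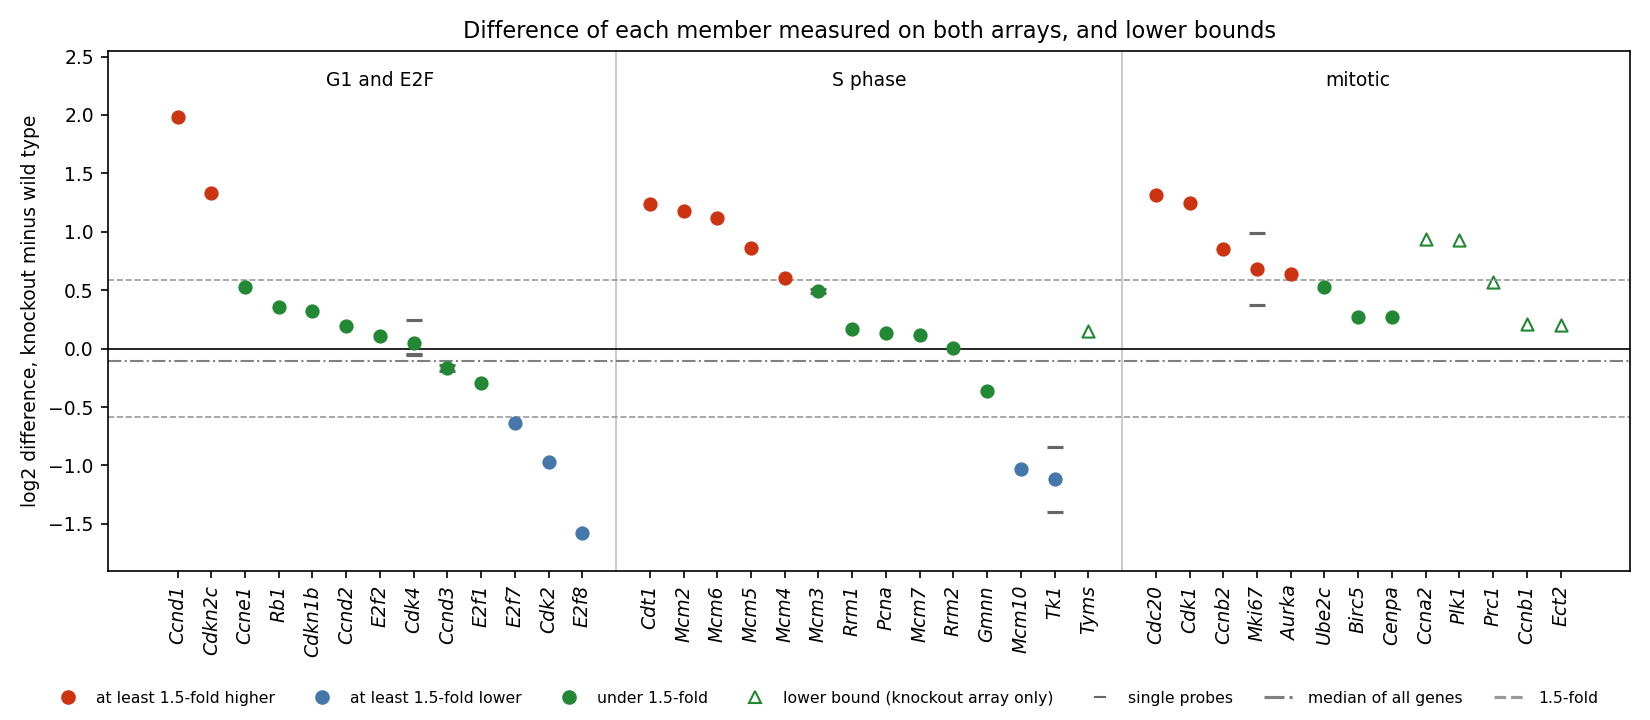
Difference of each member measured on both arrays (y axis, log2, knockout minus wild type), grouped by phase, with dashes for single probes, dashed lines at 1.5-fold, a line at the median of all genes and triangles for lower bounds. Ccnd1 (1.98) is the highest point and E2f8 (-1.58) the lowest, and the 8 mitotic members lie above 0.

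The mitotic members were dim, and those measured on both arrays lay above 0. Of 20, 8 were measured on both arrays, 6 on the knockout array alone and 6 on neither, and the 8 differences ran from 0.27 to 1.31. Among these, 5 were at least 1.5-fold higher (62.5%) and 0 lower, where genes of the same range of levels gave 15.2% and 13%, with a median of 0.02. Their median log2 level was -3.11 on the wild type array, near the lowest measured level of -4.08 there. With normexp correction 0 of the 8 passed 1.5-fold, 7 lay above 0 and their median was 0.19. A stricter filter on dim probes left only Birc5 and Cenpa, with a median of 0.27.

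The kinase module that starts mitosis was represented by cyclin B2 and Cdk1. Cdk1 had a level of 0.0680 in the wild type and 0.162 in the knockout, 2.38-fold higher (1.25; probe at mm9 chr10:68799513-68799572, minus strand). Of its other probes, 1 was measured on the knockout array alone and 1 on neither, and with normexp correction the difference was 0.30. Ccnb2, a B cyclin that activates Cdk1, went from 0.181 to 0.327, 1.80-fold higher. The remaining cyclins of this module were measured on the knockout array alone, a selection that favours higher values there. Ccna2, cyclin A2, was at least 1.92-fold higher and Ccnb1, cyclin B1, at least 1.16-fold. The other Ccnb1 probes were measured on neither array (differences -0.35 and -0.29). Of the 2 probes for Foxm1, the transcription factor of mitotic genes, 1 was measured on the knockout array alone, without a usable bound, and 1 on neither.

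Among genes of the spindle and of mitotic exit, Cdc20 and Aurka were higher. Cdc20, the activator of the anaphase-promoting complex, had a level of 0.0951 in the wild type and 0.237 in the knockout, 2.49-fold higher (1.31; 0.55 with normexp correction; probe at mm9 chr4:118105534-118105593, minus strand). Ube2c, the ubiquitin-conjugating enzyme of the same complex, went from 0.0946 to 0.137, 1.44-fold and so just under the threshold. That value came from 1 of its 2 probes, and the other was measured on the knockout array alone (difference 1.07). Loess normalization, no filter on dim probes and spike-in scaling each called Ube2c higher. Aurka, the Aurora A kinase of spindle poles, went from 0.0952 to 0.148 (1.56-fold) and lost its call with quantile normalization and in the authors' deposited table. Plk1, a kinase of mitotic entry and spindle assembly, and Prc1, a bundler of spindle microtubules, were measured on the knockout array alone. That selection favours higher values there, and they were higher by at least 1.90-fold and 1.49-fold. Ect2, which triggers cytokinesis, was at least 1.15-fold higher on the same footing, from 1 of its 2 probes. The other Ect2 probe was measured on neither array.

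Mki67, the widely used proliferation marker Ki-67, went from 0.140 to 0.225, 1.60-fold higher. Its probes gave 0.38 and 0.99, and with only the brightest probe per gene it fell short of 1.5-fold. Birc5 (survivin) and Cenpa, the histone variant of centromeres, were within 1.5-fold, Birc5 at 0.414 and 0.50 and Cenpa at 0.371 and 0.447. The Birc5 value came from 1 probe. Of its other probes, 1 was measured on the knockout array alone (difference 1.17) and 1 on neither (0.97). Neither array measured Top2a, the topoisomerase that untangles chromosomes, the centriole kinase Plk4, Aurkb, the spindle checkpoint genes Bub1 and Bub1b, or the motor Kif11. Of the 6 mitotic members seen on the knockout array alone (30% of the group), 2 had a bound of at least 1.5-fold, where 26.3% of all genes seen there alone did.

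**Figure D4:**
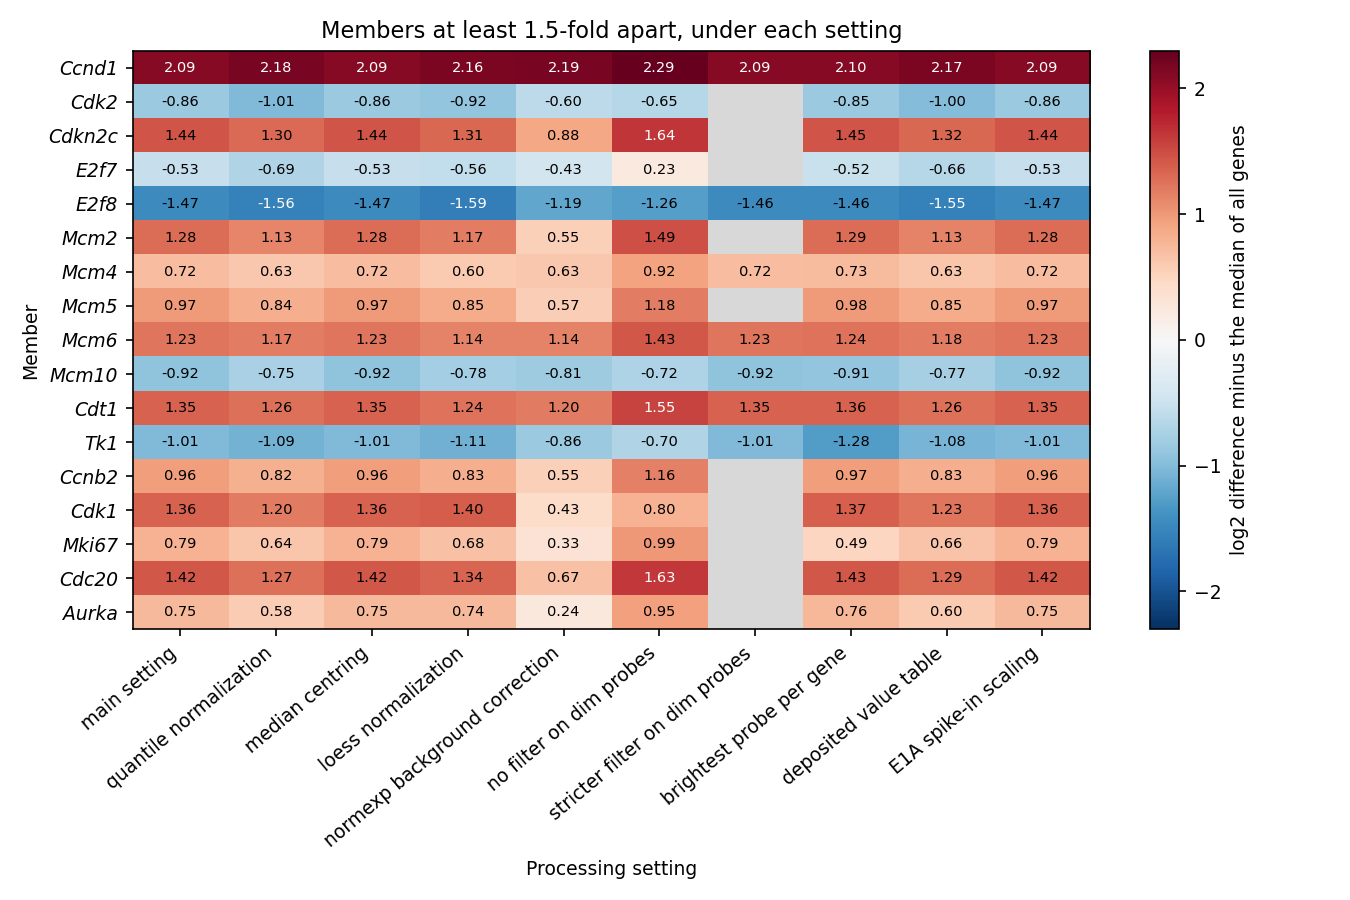
Log2 difference (knockout minus wild type, less the median of all genes under that setting; colour scale) of the members at least 1.5-fold apart, in the main setting and 9 others, with grey where a filter removed the gene. Ccnd1 lies between 2.09 and 2.29 in all of them, while Cdk1 goes from 1.36 to 0.43 and Aurka from 0.75 to 0.24 with normexp background correction.

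Other genes of the pathway were counted from 7 lists in which the 50 members were not included. Cdkn1a encodes p21, an inhibitor of cyclin-dependent kinases and a target of p53, and went from 0.474 to 3.78, 7.98-fold higher (2.44 to 3.80 over all settings). It was the only 1 of 3 inhibitors measured on both arrays past 1.5-fold, with Cdkn1c at 0.27 and Cdkn2d at -0.27. This is 33.3% higher and 0% lower, from 3 genes, against 8.41% and 13.4% of all genes. Another 3 inhibitors were measured on the knockout array alone, a selection that favours higher values there. Cdkn2a, which encodes p16 and Arf, was at least 2.08-fold higher, Cdkn3 at least 1.36-fold and Cdkn2b at least 1.09-fold. So 1 of these 3 had a bound of at least 1.5-fold, where 26.3% of all genes seen there alone did. Of 13 other E2F, partner and pocket protein genes, 3 were higher and 0 lower (23.1% and 0%, against 8.41% and 13.4% of all genes). E2f4, a factor that acts with pocket proteins in resting cells, went from 0.0711 to 0.360 (5.06-fold, and the 1 gene of these still past 1.5-fold with normexp correction). E2f5 was 1.65-fold and its partner Tfdp1 1.57-fold higher.

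Fewer of the further replication and mitotic genes passed 1.5-fold. Of 34 measured replication factors 3 were higher, the fork protein Timeless (1.68-fold), the origin subunit Orc5 (1.66-fold) and the chromatin assembly subunit Chaf1a (1.61-fold), and 0 were lower. This is 8.82%, close to the 8.41% of all genes, with a median of 0.17. A further 5 were measured on the knockout array alone, 1 of them with a bound of at least 1.5-fold (Orc2, 2.02-fold). The other mitotic factors had a median of 0.11 over 24 measured genes, of which 3 lay higher and 2 lower (12.5% and 8.33%, against 8.41% and 13.4% of all genes). On the knockout array alone 7 more were measured, 4 of them with a bound of at least 1.5-fold, where 26.3% of all genes seen there alone had such a bound. The spindle checkpoint gene Mad2l1 was 1.97-fold higher, while Wee1, the kinase that restrains Cdk1, went from 0.521 to 0.271, 1.92-fold lower. Racgap1, which works with Ect2 in cytokinesis, had a difference of -1.30, but its probes gave -2.89 and 0.29 and so disagree. Normexp correction left 0 higher in both of these lists.

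Among 15 other cyclins and their kinases 2 were higher and 1 lower (13.3% and 6.67%, against 8.41% and 13.4% of all genes). Cdk7 (1.79-fold) and its partner cyclin Ccnh (1.61-fold), which together activate other cell cycle kinases, were higher. Ccnt1 (1.59-fold) was lower, and normexp correction left none of these 3. Among 12 subunits of the anaphase-promoting complex 0 were higher and 3 lower (25%, against 13.4% of all genes), Anapc2, Anapc11 and Anapc13 (1.66-fold, 1.64-fold and 1.54-fold), with a median of -0.28. With quantile or loess normalization and in the deposited table, 0 of these 12 passed 1.5-fold, and spike-in scaling turned the median to 0.52. None of the 9 DNA damage checkpoint genes measured on both arrays passed 1.5-fold, where 8.41% of all genes were higher and 13.4% lower. With so few genes, the lack of calls is not read as a result about them. Their largest differences were those of Topbp1 (0.37), Atr (0.36) and Brca2 (0.27). On the knockout array alone 3 other cyclins and kinases and 2 checkpoint genes were measured. In each of these lists 1 had a bound of at least 1.5-fold, where 26.3% of all genes seen there alone did. The checkpoint gene was Hus1, at least 2.24-fold higher.

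**Figure D5:**
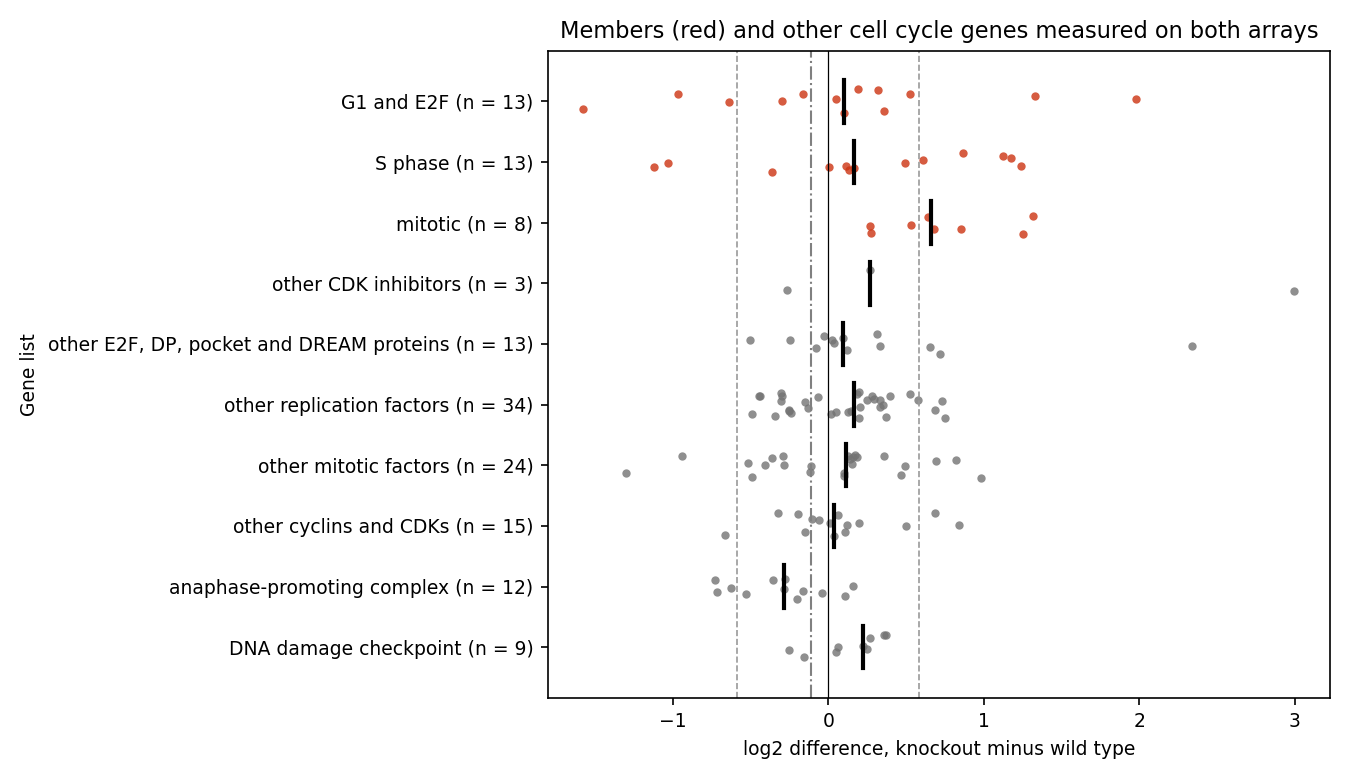
Differences of the measured genes (log2, knockout minus wild type) in the 3 phase groups and the 7 further lists, with 1 point per gene and a bar at each median. The mitotic members have a median of 0.66 and the anaphase-promoting complex the only median below 0, at -0.28.

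Markers of other cells that a liver sample holds also differed between the arrays, and their counts are read against 8.41% of all genes higher and 13.4% lower. Of 12 stellate cell and fibroblast markers 9 were higher (75%) and 1 lower (8.33%), with a median difference of 0.91. Their summed level went from 48.9 to 72.9 and was mostly that of Dcn (44.6 and 63.0), which was not called. Of 6 bile duct markers measured on both arrays 4 were higher (66.7%; summed level 0.750 and 1.41), and normexp correction left 1. Cftr went the other way, measured on the wild type array alone and at least 2.21-fold lower in the knockout, and Epcam was among those on neither array. Of 11 macrophage markers 3 were higher (27.3%) and 0 lower (57.2 and 71.6, Cd163 on neither array), and of 11 endothelial markers 2 were higher (18.2%; 43.4 and 41.2). Of 7 T, B and NK cell markers 2 were higher (28.6%) and 1 lower (14.3%), their median difference was 0.33, and normexp correction left 0 calls. Their summed level (21.8 and 18.5) was mostly that of Cd4 (18.5 and 15.4), and Cd8a and Klrb1c were among those on neither array. Lower counts led among neutrophil markers, 4 of 7 (57.1%), whose summed level (94.7 and 67.7) was mostly that of Csf3r (88.4 and 63.8, not called). They also led among erythroid precursor markers, 6 of 7 (85.7%; 176 and 99.3, with Epb4.2 and Gata1 among those on neither array). Under spike-in scaling 1 neutrophil and 2 erythroid markers were lower, and 2 neutrophil markers were higher. Of 12 hepatocyte markers 2 were higher (16.7%) and 4 lower (33.3%), and their median difference was -0.54 (summed level 3109 and 2245). There were 3 higher and 0 lower with quantile or loess normalization and in the deposited table, and with spike-in scaling 4 and 0. Of 10 skeletal muscle markers 7 were measured on the wild type array alone, as were 1.25% of all genes. These 7 were lower in the knockout by at least 3.91-fold to 88.1-fold. The 1 muscle marker measured on both arrays was 2.56-fold lower, and 2 were on neither. The part of these cells in the cell cycle differences was not tested.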

How the data were processed

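Liver RNA of 1 wild type and 1 knockout sample was hybridised to arrays on 1 slide. Per the file headers, the deposited spot values are fluorescence intensities from Agilent Feature Extraction, background-subtracted and spatially detrended. Its version is 9.5.1.1 in the submitters' processing notes and 10.7.1.1 (modules) in the file headers. The authors' deposited value table (linear intensities, median 45.9 in both columns) ranked probes like the scanner values and served as an alternative.

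Control spots (1377 of 44397 per array) and outlier spots (183 wild type, 190 knockout) were left out, and 0 spots were saturated. Processed signals were divided by the array's 75th percentile (460.6 and 721.8 intensity units), log2-transformed and averaged over copies. A probe was measured where at least 50% of its spots were marked well above background, and differences were averaged over a gene's probes that both arrays measured. For genes measured on 1 array, "at least N-fold" divides the bright value by the dim probe's own or, if greater, by the lowest measured level on the dim array. Genes carry the array's own names, with 2 list genes matched through synonyms. Probe positions are the files' (mm9), and were not annotated by exon or UTR.

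No test between groups was run, since each held 1 array. Members and lists were chosen with earlier results of these data known. From each pathway list the 3 genes with the greatest difference are named, and all members are accounted for. Some marker genes are not reported here by name. The counting scripts were checked on simulated arrays with known differences. The 8 alternative settings were quantile normalization, median centring, loess (span 0.3), normexp (offset 50), no filter on dim probes, a filter at the 25th percentile, the brightest probe and the deposited table. E1A spike-in scaling was added after seeing the data. Tools were Python 3.11.15, numpy 2.4.6, pandas 2.3.3, matplotlib 3.10.9, R 4.3.3 and limma 3.58.1.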

Additional observations from a re-analysis of the deposited data

How the results depend on the processing

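No paired analysis was possible because each group held 1 array, and for the same reason no replicate could be left out. Members at least 1.5-fold higher numbered 12 in the main setting, 4 with normexp correction (4.27% of all genes), 4 of 20 measured with the stricter filter (5.69%) and 27 with spike-in scaling (60.6%). Members lower numbered 5 in the main setting, 9 of 50 without a filter (37.5%), 3 with the stricter filter (11.1%) and 1 with spike-in scaling (1.31%). The mitotic median of 0.66 became 0.19 with normexp correction and 0.27 with the stricter filter. In the same settings the S phase median of 0.16 became 0.19 and 0.15. Spike-in scaling gave medians of 0.91 in G1, 0.97 in S phase and 1.47 in mitotic members, or 0.21, 0.27 and 0.77 relative to the median of all genes, and E2f7 turned to 0.17. The shift of the all-gene median was 0.11 with loess and -0.20 without a filter. Normexp correction and the stricter filter each kept 4 of the 12 higher members: Ccnd1, Mcm6 and Cdt1 under both, with Cdkn2c under the first and Mcm4 under the second. The cause of these changes was not tested, except that the stricter filter measured fewer members. The measured mitotic members had a median log2 level of -3.11 on the wild type array, where the lowest measured level was -4.08.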
